A study of Mus musculus with 6 samples.

Results

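Integrins and adhesion molecules are described here as a set of 36 named mouse genes, of which 35 had a probe set annotated to that gene alone and were tested among 18458 genes. They comprise 17 integrin α chains, 8 integrin β chains, 7 immunoglobulin-family molecules and 3 further surface proteins (the mucins CD43 and PSGL-1, and CD44), and Itga10 was not analysed here. The 35 genes passed a filter that asked for an intensity above the 25th percentile of the array on at least 3 of 6 arrays. All but Itgb6 passed it on every array, so none was admitted through 1 group alone. RNA came from sorted inflammatory monocytes (CD11b+ CD11c- Ly6C-high) from the spleen (3 arrays) or the tumor (3 arrays) of mice that had received Th9 cells 10 days before. Both groups share the cell transfer, so nothing here separates its effect, and tissue is the only difference the labels name between the groups. The mouse strain, the age of the mice, the kind of tumor and whether a sample pooled several mice are not stated by the labels. P-values therefore reflect the spread among these 6 arrays and no more, and part of it may be technical.

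Integrins are receptors made of 1 α and 1 β chain, and the pairing decides whether they bind extracellular matrix, soluble proteins or molecules on other cells. The β2 integrins are the leukocyte receptors for ICAM molecules and complement fragments, the α4 integrins bind VCAM-1, MAdCAM-1 and fibronectin, and the αv integrins bind ligands with an RGD sequence. Talin and kindlin, which bind the β tail inside the cell, switch integrins to a state of high affinity. Blood monocytes use selectin ligands to roll, integrins to arrest, and junctional molecules to cross the vessel wall.

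The largest differences were those of Itgb8, Vcam1 and F11r, which were higher in tumor, and of Itgb5 and Spn, which were lower. To show the sequences behind these genes and behind Icam1, which rose with Vcam1 and F11r, the 250 bases upstream of the annotated transcript start are given 5′ to 3′ on the strand of the gene, from RefSeq (GRCm38.p6). Capitals mark matches to 5 motifs searched on both strands: the NF-kB consensus, the interferon response core (GAAA, any 2 bases, GAAA), the STAT site TTCNNNGAA, the PU.1 site GAGGAAGT and the Sp1 box GGGCGG. Vcam1 is not among those printed.
Itgb8, chr12:119238277-119238526, minus strand: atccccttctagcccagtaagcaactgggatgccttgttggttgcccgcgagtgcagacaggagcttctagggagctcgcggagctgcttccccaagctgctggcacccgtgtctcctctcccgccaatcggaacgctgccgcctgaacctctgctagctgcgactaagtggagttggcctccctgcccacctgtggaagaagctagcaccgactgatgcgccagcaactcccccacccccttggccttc
F11r, chr1:171437311-171437560, plus strand: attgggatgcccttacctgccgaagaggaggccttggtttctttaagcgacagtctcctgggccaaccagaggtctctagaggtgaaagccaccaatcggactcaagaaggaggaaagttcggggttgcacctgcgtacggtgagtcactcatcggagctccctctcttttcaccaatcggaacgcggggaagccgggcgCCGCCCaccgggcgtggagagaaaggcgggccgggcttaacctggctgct
Icam1, chr9:21015690-21015939, plus strand: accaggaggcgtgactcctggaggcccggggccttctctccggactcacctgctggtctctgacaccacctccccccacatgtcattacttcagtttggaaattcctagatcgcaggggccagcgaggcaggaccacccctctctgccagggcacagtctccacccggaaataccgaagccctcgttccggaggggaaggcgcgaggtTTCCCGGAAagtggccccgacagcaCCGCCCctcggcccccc
Itgb5, chr16:33829415-33829664, plus strand: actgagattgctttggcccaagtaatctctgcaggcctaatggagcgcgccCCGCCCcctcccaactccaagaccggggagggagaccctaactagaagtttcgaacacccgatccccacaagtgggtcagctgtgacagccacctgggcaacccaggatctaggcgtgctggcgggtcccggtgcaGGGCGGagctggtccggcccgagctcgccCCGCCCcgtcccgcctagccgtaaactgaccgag
Spn, chr7:127137824-127138073, minus strand: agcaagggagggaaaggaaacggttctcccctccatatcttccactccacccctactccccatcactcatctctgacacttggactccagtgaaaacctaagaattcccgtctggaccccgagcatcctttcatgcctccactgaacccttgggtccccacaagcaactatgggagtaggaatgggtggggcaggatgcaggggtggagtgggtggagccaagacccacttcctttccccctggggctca

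Icam1 held the STAT site, beginning at position -42 from the transcript start, and was the only 1 of 23 adhesion genes with a RefSeq window to do so, against 7.02% of all 32851 windows of this length. The Sp1 box lay in the windows of Itga5, Icam1, F11r and Cd47 among 6 higher genes and of Itgam and Itgb5 among 5 lower genes, of Itga3, Itga4, Itgb1 and Alcam among 12 not called, and in 32.7% of all windows. A PU.1 site lay upstream of Itgav, Itga11 and Itgb6 (2.44% of all windows), and the interferon response core upstream of Itga2b and Itga3 (2.98%). The NF-kB consensus, searched as a strict pattern of 10 bases, matched none of the 23 and 3.90% of all windows. Stretches that depart from that pattern by a single base were not counted, so looser NF-kB sites were not searched. An adhesion gene counted if any of its windows matched, whereas each share counts single windows. Itga3 and Cd47, for example, had more than 1 window. A match describes letters and not binding, and a missing match says only that those letters are not in these 250 bases.

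Levels below are log2(intensity + 1) of 1 probe set per gene, and each difference is the tumor mean minus the spleen mean on that scale, ± SE from limma, a linear model with a variance shared across genes. A gene was called at a Benjamini-Hochberg adjusted p under 0.05 over all genes tested. Of the 35 adhesion genes 7 were higher and 5 lower in tumor, against 10.6% of all genes called (5.73% higher and 4.85% lower). The median difference was -0.06 over the 35 genes and -0.05 over all genes tested. Groups did not overlap for 18 adhesion genes (8 higher, 10 lower), a pattern that 25.4% of all genes showed (9.81% higher and 15.5% lower). Without spleen 1, spleen 2 or tumor 1 the number higher was 3, against 681, 662 and 718 of all 18458 genes called higher. In either direction 6.21%, 5.59% and 5.48% of all genes were called in these runs. The number lower was 3 without spleen 2 and 2 without tumor 1, against 369 and 293 of all genes called lower. All 12 called genes kept their direction, as they had to, since their groups did not overlap. With the replicate number as a block, 9 were higher and 9 lower, against 29.0% of all genes called (11.7% higher and 17.3% lower).

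Arrays numbered 3 stood apart in both groups. Their medians of log2 intensity were 4.73 and 4.76, against 4.50 to 4.51 on the other arrays, and number 3 gave the highest value of both groups in 23 of the 35 adhesion genes, as in 61.8% of all genes. The 12 called genes changed in the same direction in each of the pairs numbered 1, 2 and 3. That adds no support, since groups that do not overlap leave no other outcome. With numbers 1 and 2 alone 8 adhesion genes were higher and 5 lower, against 15.9% of all genes called (1387 higher and 1549 lower).

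**Figure D1:**
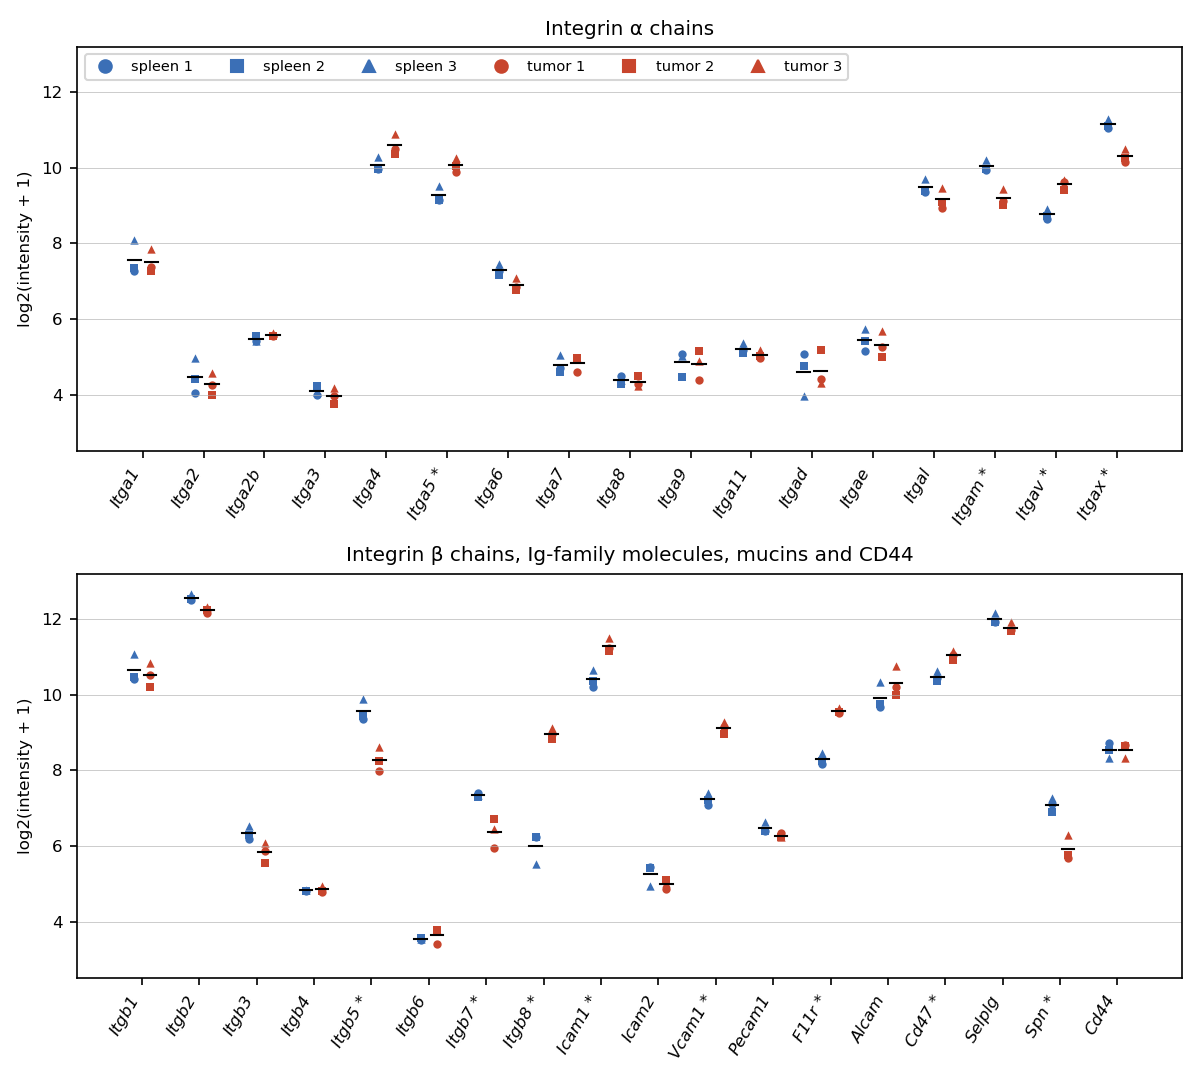
Level of each adhesion gene, log2(intensity + 1), on each of 3 spleen and 3 tumor arrays (points) with the group mean (black lines). Asterisks mark the 12 called genes, and Itgb8 and Vcam1 show the widest gap between the groups.

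Both integrin α chains that the sort reads as proteins were lower in tumor. Itgam (probe set 17483577), which encodes CD11b, the αM chain of Mac-1, read 9.95, 9.96 and 10.21 on the spleen arrays and 9.12, 9.02 and 9.45 on the tumor arrays. Every tumor value lay below every spleen value, a difference of -0.85 ± 0.17 (limma adjusted p = 0.015). Itgax (probe set 17483615), which encodes CD11c, the αX chain, read 11.06, 11.12 and 11.30 in spleen and 10.16, 10.27 and 10.50 in tumor, a difference of -0.85 ± 0.16 (adjusted p = 0.00986). Although CD11c-negative cells were sorted, Itgax lay above the array's 95th percentile of intensity on all 6 arrays, so this RNA goes against the label's CD11c-negative gate. Of the genes that mark the labelled cells, Itgam lay above that percentile on the 3 spleen arrays and on no tumor array. Ly6c2 (intensity 84.2 to 420) and Ccr2 (53.3 to 124) did so on 0 of 6. Ccr7, a gene of migratory dendritic cells and T cells, lay above it on all 6 (2825 to 4501). Ly6c2, Ccr2 and Ccr7 thus bear out the Ly6C-high monocyte label poorly, and other markers were mixed. The classical monocyte markers Chil3 (mean level 12.89 in spleen and 12.77 in tumor) and Csf1r (11.39 and 10.82) were bright. Others of that list were not, among them Plac8 (6.04 and 6.73), F13a1 (6.64 and 6.60) and Hp (6.95 and 6.86). Of the macrophage markers Cd68 (12.54 and 12.28) and C1qb (11.03 and 10.38) were bright, whereas Timd4 (4.50 and 5.02) was not. Of the dendritic cell markers Fscn1 (10.96 and 11.41) was bright, whereas Flt3 (6.89 and 6.99) and Xcr1 (4.59 and 4.30) were not. Without spleen 2, tumor 1 or tumor 2 the adjusted p of Itgam was 0.0566, 0.0801 and 0.0608, and without tumor 1 that of Itgax was 0.0594.

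Their common partner Itgb2, the β2 chain or CD18, read 12.51, 12.53 and 12.67 in spleen and 12.16, 12.24 and 12.33 in tumor. The groups did not overlap, but the difference of -0.33 ± 0.14 was not called (adjusted p = 0.212, and 0.0286 with the replicate block). Itgal, the α chain of LFA-1, differed by -0.32 ± 0.19 (adjusted p = 0.412, and 0.0389 with the block), with overlapping groups. Itgad, the α chain of the remaining β2 integrin and the gene next to Itgax on its chromosome, differed by 0.03 ± 0.32 (adjusted p = 0.989). Within each array, the log2 ratio of Itgam to Itgb2 shifted by -0.52 ± 0.10 and that of Itgax to Itgb2 by -0.52 ± 0.06, whereas that of Itgal to Itgb2 shifted by 0.01 ± 0.12 (SE from 3 arrays per group). These are 3 of 7 such ratios, chosen after the values were seen. The first 2 had an exact two-sided permutation p = 0.1, the smallest that 3 against 3 arrays allow (0.117 adjusted over the 7), and the third p = 0.8.

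Markers of other cells that carry these chains were read on the same arrays. Of 10 tested neutrophil markers 1 was lower (Mmp8, -0.68 ± 0.16), and the summed intensity of that list ran from 3292 to 3960 in spleen and from 2434 to 2769 in tumor. Of 9 tested dendritic cell markers 2 were higher (Zbtb46, 0.89 ± 0.17, and Ccr7), and the sums were 5887 to 6378 and 8061 to 8231. Mmp8 and Ccr7 were the brightest markers of their lists, so each sum follows them most. Macrophage markers had 0 of 9 higher at the adjusted threshold and 0 at an unadjusted p under 0.05 by limma, with 1 higher with the replicate block. They had 2 lower (C1qb and C1qc), 3 at an unadjusted p under 0.05 and 4 with the block, with sums of 13116 to 15347 and 11130 to 12816. Classical monocyte markers had 6 of 11 higher and 2 lower, among them Ly6c2 higher and Ccr2 lower. No marker is listed at 0. The part of these cells in the changes of Itgam and Itgax was not tested, and in sorted bulk RNA fewer cells of a type and less RNA per cell cannot be told apart.

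The αv integrins split by their β chain. Itgb8 (probe set 17284839) had the largest change of the set. It encodes β8, which pairs with αv alone and is known for activating latent TGF-β. Its level was 6.22, 6.24 and 5.54 in spleen and 8.97, 8.82 and 9.11 in tumor. The lowest tumor array was thus far above the highest spleen array, a difference of 2.97 ± 0.22 (7.83-fold, adjusted p = 6.2e-05), and the gene ranked 100 from the top of 18458. Spleen 3 lay below the other spleen arrays here, so that the difference was 2.67 with numbers 1 and 2 alone (adjusted p = 0.003) and 3.58 within number 3.

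Itgav (probe set 17372515), the αv chain itself, read 8.66, 8.72 and 8.92 in spleen and 9.63, 9.41 and 9.68 in tumor, higher by 0.81 ± 0.15 (adjusted p = 0.0113). Its second probe set, read near the floor, showed a difference of 0.23, and with both probe sets averaged the difference was 0.52 (adjusted p = 0.0502). Without spleen 1, spleen 2 or tumor 1 the adjusted p of Itgav was 0.0616, 0.0656 and 0.0645.

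Itgb5 (probe set 17325109), which gives the vitronectin receptor αvβ5, moved the opposite way. It read 9.37, 9.45 and 9.90 in spleen and 7.99, 8.25 and 8.61 in tumor, lower by 1.29 on the log2 scale (-1.29 ± 0.21, 2.45-fold lower, adjusted p = 0.00611). Every tumor array lay below every spleen array. Itgb3, the partner of αv in αvβ3 and of αIIb on platelets, read 6.19, 6.29 and 6.53 in spleen and 5.87, 5.55 and 6.07 in tumor, a difference of -0.50 ± 0.18 (adjusted p = 0.14, and 0.0121 with the replicate block). Itgb6, the epithelial partner of αv, was dim on all arrays and differed by 0.12 ± 0.16. The within-array log2 ratio of Itgb8 to Itgb5 shifted by 4.26 ± 0.42 and that of Itgb8 to Itgb3 by 3.47 ± 0.34 (each exact two-sided permutation p = 0.1, 0.117 adjusted over the 7 ratios). Tumor lay above spleen in 3 of 3 numbers for each ratio, as groups that do not overlap require. Tgfb1, the gene of the latent cytokine, differed by -0.29 ± 0.20 (adjusted p = 0.514), and Ltbp1, a latent TGF-β binding protein, by 0.12 ± 0.17.

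Platelet markers were read because platelets carry αIIbβ3. Of 6 tested, 1 was lower (Ppbp, 3.99-fold lower), and their summed intensity ran from 649 to 888 in spleen and from 296 to 337 in tumor. Ppbp was the brightest of them, so this sum follows it most. Itga2b, which encodes αIIb, differed by 0.11 ± 0.13 (adjusted p = 0.788). The part of platelets in the values of Itgb3 was not tested.

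**Figure D2:**
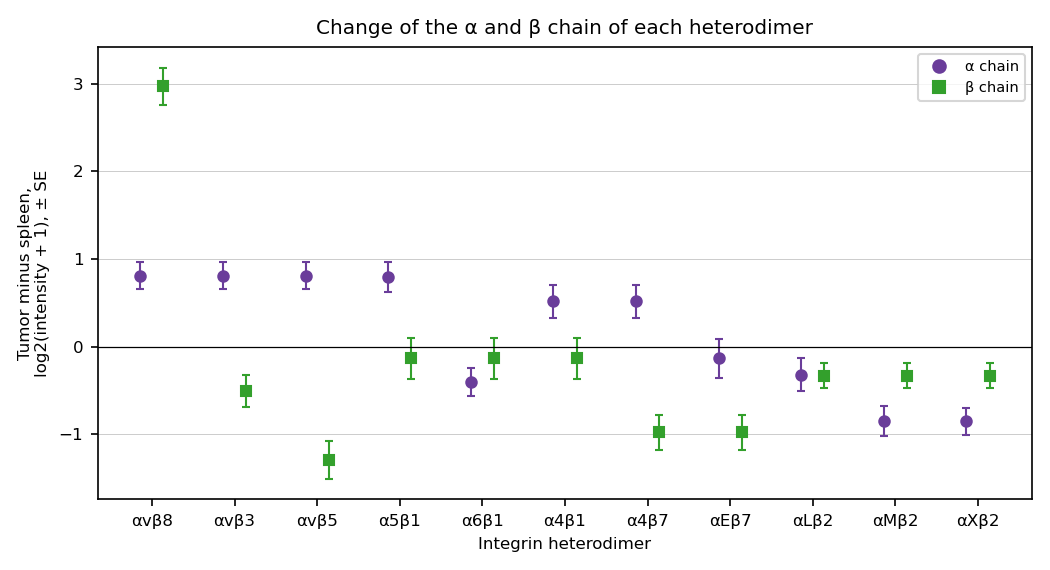
Tumor minus spleen difference, log2(intensity + 1) ± SE (limma, 3 arrays per group), of the α chain (circles) and β chain (squares) of 11 integrin heterodimers. The αv chain rose by 0.81 while its partners ran from 2.97 for β8 to -1.29 for β5, and the β2, αL, αM and αX chains lay below 0 (αD, at 0.03, is not plotted).

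The chains of α5β1 and of α4β7 also had unequal mean differences, and no ratio of α4 to β1 was read. Itga5 (probe set 17322369), the α chain of the fibronectin receptor α5β1, read 9.15, 9.14 and 9.52 in spleen and 9.90, 10.04 and 10.26 in tumor. All tumor values were above all spleen values, a difference of 0.80 ± 0.17 (adjusted p = 0.0212). Without spleen 1, spleen 2, tumor 1 or tumor 2 its adjusted p was 0.0926, 0.103, 0.0545 and 0.0635. Itgb1, the β1 chain that pairs with α5, α4, α6 and many other α chains, differed by -0.13 ± 0.23 (adjusted p = 0.886), with overlapping groups. The within-array log2 ratio of Itga5 to Itgb1 shifted by 0.93 ± 0.17 (exact two-sided permutation p = 0.1, 0.117 adjusted over the 7 ratios).

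Itga4, the α4 chain, read 9.97, 9.97 and 10.29 in spleen and 10.51, 10.37 and 10.90 in tumor. The groups did not overlap, but the difference of 0.52 ± 0.19 was not called (adjusted p = 0.139, and 0.00542 with the replicate block). Itgb7 (probe set 17322163), the β7 chain that makes the gut-homing receptor α4β7 and the E-cadherin receptor αEβ7, read 7.39, 7.30 and 7.35 in spleen and 5.96, 6.71 and 6.44 in tumor. It was lower by 0.98 (-0.98 ± 0.20, adjusted p = 0.017), and the tumor values were more scattered than those of spleen. Its adjusted p was 0.114 with numbers 1 and 2 alone, and 0.0656, 0.0619 and 0.0545 without spleen 1, spleen 2 or tumor 1. Itgae, the αE chain, differed by -0.13 ± 0.22. The within-array log2 ratio of Itgb7 to Itga4 shifted by -1.50 ± 0.30 (exact two-sided permutation p = 0.1, 0.117 adjusted over the 7 ratios). Its direction was the same in 3 of 3 numbers, as groups that do not overlap require.

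Itga6, the α chain of the laminin receptors α6β1 and α6β4, read 7.26, 7.18 and 7.46 in spleen and 6.85, 6.76 and 7.09 in tumor. Its groups did not overlap, at a difference of -0.40 ± 0.16 (adjusted p = 0.175, and 0.0126 with the block). The other integrin chains, which are the collagen receptor chains Itga1, Itga2 and Itga11, together with Itga3, Itga7, Itga8, Itga9 and Itgb4, had differences between -0.21 and 0.06. Itga2, Itga3 and Itga8 lay, like Itgb6, under 4.42, the 25th percentile of mean levels of the genes tested, in their lower group, so background limits the size of a difference there. Of the 17 α chains 2 were higher and 2 lower, and of the 8 β chains 1 was higher and 2 lower, against 5.73% higher and 4.85% lower of all genes.

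Of the 7 immunoglobulin-family molecules 4 were higher and 0 lower by limma, against 5.73% higher and 4.85% lower of all genes, with 0 lower at an unadjusted p under 0.05 and 0 with the block, and the median difference was 0.56. Vcam1 (probe set 17409649), the ligand of α4β1 best known from activated endothelium and also made by some macrophages, read 7.09, 7.21 and 7.41 in spleen and 9.16, 8.96 and 9.28 in tumor. The gap between the groups was wide against the spread within them, a difference of 1.90 ± 0.16 (3.73-fold, adjusted p = 1.5e-04), and it was 1.91 with numbers 1 and 2 alone and 1.88 in number 3. F11r (probe set 17219362), which encodes the junctional molecule JAM-A, read 8.17, 8.25 and 8.46 in spleen and 9.52, 9.55 and 9.66 in tumor. JAM-A binds itself on neighbouring cells and LFA-1 on leukocytes, and its gene was higher by 1.28 ± 0.15 (2.43-fold, adjusted p = 9.3e-04).

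Icam1 (probe set 17515074), the ligand of LFA-1 and Mac-1, whose window above held the STAT site, read 10.21, 10.38 and 10.66 in spleen and 11.23, 11.15 and 11.50 in tumor. It was higher by 0.88 ± 0.17 (adjusted p = 0.0145), and its adjusted p was 0.0678, 0.0695 and 0.0592 without spleen 1, spleen 2 or tumor 1. Icam2, a constitutive ligand of LFA-1, differed by -0.27 ± 0.18 (adjusted p = 0.492). Cd47 (probe set 17326166), the surface signal read by SIRPα on phagocytes, read 10.45, 10.37 and 10.63 in spleen and 11.06, 10.91 and 11.17 in tumor. Its difference of 0.56 ± 0.15 was close to the threshold (adjusted p = 0.0498), and the adjusted p ran from 0.0854 to 0.218 without spleen 1, spleen 2, tumor 1, tumor 2 or tumor 3, each left out in turn, and was 0.055 with no pseudocount and 0.0509 with probe sets averaged.

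Alcam, an adhesion molecule that binds CD6 on T cells, read 9.68, 9.77 and 10.34 in spleen and 10.21, 9.99 and 10.75 in tumor. Its groups overlapped through spleen 3, at a difference of 0.39 ± 0.25 (adjusted p = 0.473, and 0.0241 with the block). Pecam1, a molecule of the junctions between endothelial cells that leukocytes also carry, differed by -0.20 ± 0.15 (adjusted p = 0.538). Of 7 tested endothelial markers 1 was higher (Kdr, 2.88 ± 0.23) and 1 lower (Vwf). Their summed intensity ran from 479 to 580 in spleen and from 556 to 791 in tumor, Cdh5 differed by -0.07 ± 0.17, and Emcn lay under the filter. The part of endothelial cells in the change of Vcam1 was not tested.

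**Figure D3:**
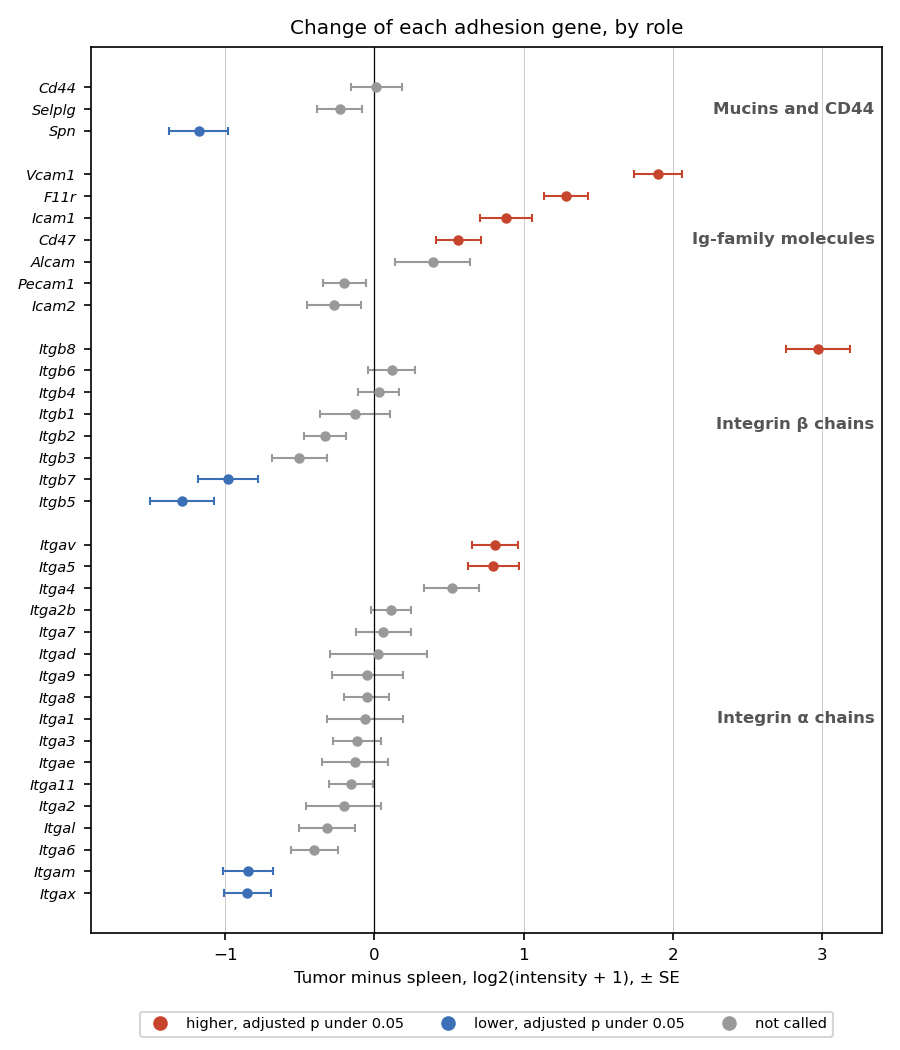
Tumor minus spleen difference, log2(intensity + 1) ± SE (limma, 3 arrays per group), of the 35 adhesion genes in 4 groups by role, ordered by size. Itgb8 at 2.97 and Vcam1 at 1.90 lie farthest to the right, and Itgb5 at -1.29 and Spn at -1.18 farthest to the left.

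Among the mucins and CD44, Spn (probe set 17496599) was lower. It encodes CD43, a large sialomucin of leukocytes that is also a marker of nonclassical monocytes in mice, and read 7.11, 6.91 and 7.26 in spleen and 5.69, 5.76 and 6.29 in tumor. The groups were well apart, a difference of -1.18 ± 0.20 (2.26-fold lower, adjusted p = 0.00652). Selplg, which encodes PSGL-1, the ligand of P-selectin, read 11.93, 11.93 and 12.16 in spleen and 11.70, 11.70 and 11.92 in tumor. Tumor values lay below spleen values by little, a difference of -0.23 ± 0.15 that was not called (adjusted p = 0.476). Cd44, the hyaluronan receptor, differed by 0.01 ± 0.17 (adjusted p = 0.989), and number 3 was its lowest array in both groups.

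Lymphocytes carry CD43, LFA-1 and β7 as well. Of 9 tested T cell markers 1 was lower (Cd3g, -1.36 ± 0.18), and their summed intensity ran from 360 to 410 in spleen and from 237 to 302 in tumor. Of 6 tested B cell markers 1 was lower (Cd22, -0.70 ± 0.17), with sums of 458 to 633 and 330 to 432. Of 7 tested NK cell markers 1 was higher (Klrk1, 1.73 ± 0.23), with sums of 248 to 340 and 616 to 897. Cd22 and Klrk1 were the brightest markers of their lists, so these sums follow them most. Cd3d differed by 0.00 ± 0.18, Ms4a1 by -0.14 ± 0.21 and Ncr1 by -0.07 ± 0.19. The part of lymphocytes in the changes of Spn and Itgb7 was not tested.

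**Figure D4:**
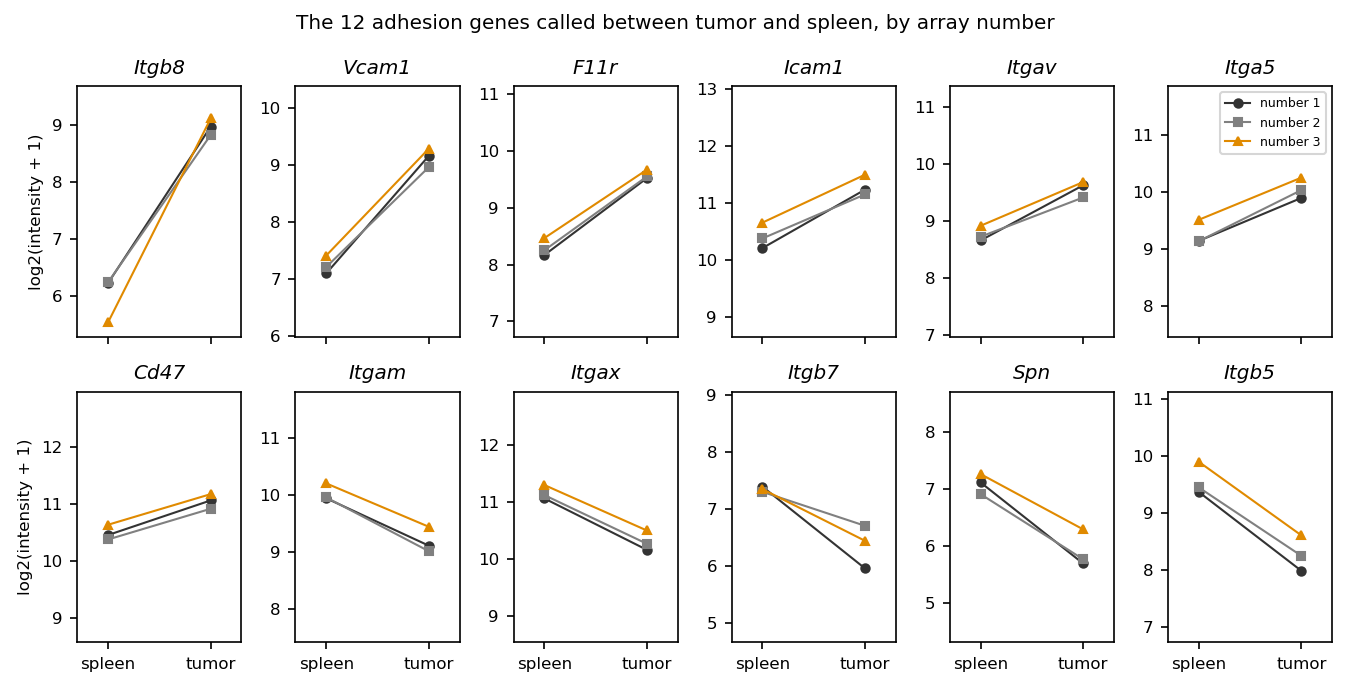
Level, log2(intensity + 1), of the 12 called adhesion genes on the spleen and tumor array of each number, joined by a line per number. Each panel spans the same height, and all 3 lines run the same way in every panel, as groups that do not overlap require.

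The genes that switch integrins on, signal from them or bind them were read from 4 lists with 97 tested genes, of which 8 were higher and 12 lower in tumor (20.6% called, against 10.6% of all genes, 5.73% higher and 4.85% lower). Among 20 genes of integrin activation 1 was higher and 4 lower, with a median difference of -0.15. Fermt3, the kindlin of blood cells, which binds the tail of β integrins, fell by 0.79 ± 0.19 (-0.79, adjusted p = 0.0291), Apbb1ip, the RIAM adaptor that brings talin to the membrane, by 0.74 ± 0.17 (-0.74, adjusted p = 0.0265), and Fyb, the ADAP adaptor, by 0.90 ± 0.22 (-0.90, adjusted p = 0.0366). The calls of these 3 were lost without any 1 of the arrays other than tumor 3, with adjusted p up to 0.135, 0.12 and 0.155. Talin itself, Tln1, differed by -0.30 ± 0.15 (adjusted p = 0.315, and 0.0435 with the block). The Rap1 GTPase-activating gene Sipa1 fell by 0.65 ± 0.14 (-0.65, named after its value was seen), with an adjusted p up to 0.11 without spleen 1, spleen 2, tumor 1 or tumor 2 and 0.0851 with cyclic loess, and its relative Sipa1l1 rose by 1.69 ± 0.15 (adjusted p = 2.2e-04).

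Among 29 genes of outside-in signalling and adhesion sites 0 were higher by limma (2 at an unadjusted p under 0.05 and 4 with the block) and 4 were lower, so that 13.8% were called against 10.6% of all genes. Tns1, the gene of tensin, which links β tails to actin, differed by -1.50 ± 0.20 (adjusted p = 0.00234), and Parvg, the parvin of blood cells, by -1.09 ± 0.15 (adjusted p = 0.00263). The tetraspanin gene Cd151 differed by -0.72 ± 0.17 (adjusted p = 0.0314, up to 0.136 without spleen 1, spleen 2, spleen 3 or tumor 1, and 0.113 with numbers 1 and 2 alone). Dock2, a Rac activator named after its value was seen, differed by -0.63 ± 0.13 (adjusted p = 0.0207, up to 0.113 without spleen 1, spleen 2, tumor 1 or tumor 2).

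Matrix and soluble ligands had 2 higher and 4 lower of 26. Thbs1, or thrombospondin 1, a ligand of CD47 and of αv integrins, rose by 1.37 ± 0.16 (adjusted p = 8.2e-04), and Edil3, an RGD protein that binds αv integrins, by 0.82 ± 0.18 (adjusted p = 0.0207, up to 0.0861 without spleen 1, spleen 2 or tumor 1). On the lower side were Vwf (-1.37 ± 0.15, adjusted p = 7.0e-04), the matricellular genes Ccn1 (7.42 in spleen and 6.42 in tumor, adjusted p = 0.0052) and Ccn2 (-0.65 ± 0.17, adjusted p = 0.0479, named after its value was seen), and fibronectin, Fn1, the ligand of α5β1 (-0.78 ± 0.16, adjusted p = 0.0167). Fn1 had an adjusted p up to 0.084 without spleen 2, tumor 1 or tumor 2, and Ccn2 one up to 0.16 without any 1 array other than tumor 3. With its probe sets averaged Ccn2 differed by -0.38 (adjusted p = 0.335), and its adjusted p was 0.0508 with no filter, 0.0506 with no pseudocount and 0.0608 with the trend and robust prior.

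Surface counter-receptors had 5 of 22 higher and 0 lower by limma (3 lower at an unadjusted p under 0.05 and 4 with the block). The nectin-family genes Pvr and Nectin2 rose by 1.71 ± 0.22 and 1.21 ± 0.14 (adjusted p = 0.00166 and 0.00103), and Cd226, their shared activating receptor, which read 4.09, 3.69 and 4.22 in spleen and 5.87, 5.29 and 6.51 in tumor, by 1.89 ± 0.30 (adjusted p = 0.00494), with the spleen values under the dim limit of 4.42. Siglec1 (0.92 ± 0.20) and Icam5 (0.79 ± 0.14) were also higher and are named after their values were seen. Siglec1 had an adjusted p up to 0.0844 without spleen 1, spleen 2 or tumor 1, and Icam5 one of 0.103 with its probe sets averaged. The other partners named here were not called. Sirpa, the receptor of CD47, differed by -0.27 ± 0.18 (adjusted p = 0.481), and Madcam1, the ligand of α4β7, by -0.08 ± 0.16. Selp, or P-selectin, the partner of PSGL-1, differed by 0.59 ± 0.20 (adjusted p = 0.113, and 0.0294 with the block). Its spleen mean of 3.97 also lay under the dim limit of 4.42.

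**Figure D5:**
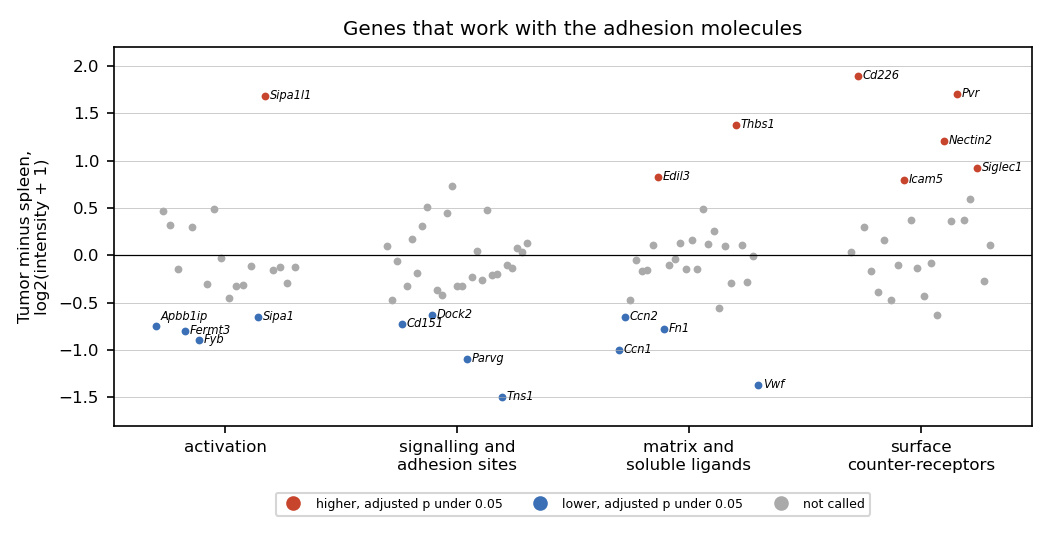
Tumor minus spleen difference, log2(intensity + 1), of 97 genes that activate, signal from or bind the adhesion molecules, in 4 lists, with the 20 called genes named. Activation and signalling genes show 8 of their 9 called members below 0, and all 5 called counter-receptors lie above 0. Of all genes 5.73% were called higher and 4.85% lower. With the replicate block 5 activation genes were higher and 7 lower, and 4 signalling genes were higher and 9 lower. Counter-receptors then had 7 higher and 4 lower, and all genes 11.7% higher and 17.3% lower.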

How the data were processed

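RNA of 6 sorted samples with an integrity number above 8.5 was read on Mouse Gene 2.0 ST arrays. The authors deposited a linear intensity for each probe set on each array, made with RMA per the submitters' processing notes, without version or settings. The array quantiles differ, so a common distribution was not imposed on all 6, and the number of arrays limits the precision. Of 41345 probe sets, 23521 carry 1 gene symbol in GEO's platform annotation, 1814 several and 16010 none listed, and only the first kind was used, for each gene the probe set with the highest mean. RefSeq (GRCm38.p6) held 23328 of them under the same symbol.

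Values were used as log2(intensity + 1), which understates changes of dim genes. Genes above their array's 25th percentile on at least 3 arrays were tested with limma 3.58.1 in R 4.3.3 (lmFit, eBayes, two-sided, group only, Benjamini-Hochberg over 18458 genes). The fit was tested on simulated data. Across genes, arrays of equal number deviated from their group means together (correlations 0.36, 0.44 and 0.71). Spleen 1 with tumor 2 gave 0.46 and spleen 2 with tumor 1 gave 0.35, so these values do not show that numbers 1 and 2 are pairs. The reported calls use no pairs. A fit with the number as a block was run beside them, and blocked values are given where they change a call. The adhesion genes and lists were chosen with earlier results of these data known. Named are all called adhesion genes, others called with the block or at an unadjusted p under 0.05, partners of called chains, and the first 3 called genes per direction of each partner list; called partners beyond these 3 are marked as named after their values were seen. Marker lists whose values are not given above had 0 called (eosinophil, basophil and mast cell, fibroblast, melanocyte and erythroid, with 0 of 7, 7, 5 and 2 tested genes by limma, and 1, 2, 0 and 0 at an unadjusted p under 0.05) or 1 lower of 6 (epithelial). Alternatives covered scaling, filter, pseudocount, probe set choice, variance prior, array weights, the block, threshold and arrays left out.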

Additional observations from a re-analysis of the deposited data

How the results depend on the processing

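Among the 12 called adhesion genes no alternative run changed a direction. Where arrays were only left out this was fixed beforehand, since the groups of these genes did not overlap. The count of all genes called was 1952, and 3507 with quantile normalization, 3289 with median centring, 3184 with cyclic loess, 7102 with array weights, 5346 with the replicate block (the pairing by number), 2936 with numbers 1 and 2 only, and 961 at an adjusted p under 0.01. Leaving out 1 array gave 1011 to 1924. The 7 adhesion genes called higher became 3 at an adjusted p under 0.01 and 3 to 7 with 1 array left out, and the 5 called lower became 9 with the replicate block, 11 with array weights, 3 at an adjusted p under 0.01 and 2 to 5 with 1 array left out. The cause of these moves was not tested, beyond the smaller number of arrays or the stricter threshold itself. The other alternatives kept each count within 1.5 times. Itgb8, Vcam1, F11r, Itgb5 and Spn kept their call in every alternative run. Itga4, not called as reported, was called with quantile normalization, median centring, cyclic loess, array weights, the block and numbers 1 and 2 only. Intensities near the floor limit Itgb6, Itga2, Itga3 and Itga8.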

Other observations

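Genes next to the called adhesion genes on the chromosome (RefSeq order) did not always share their change. Itgam and Itgax, which lie side by side, were both lower by 0.85, while Itgad, the next gene, differed by 0.03 ± 0.32. Icam4, next to Icam1, differed by -0.11 ± 0.17 (adjusted p = 0.858), and Icam5, the gene after it, by 0.79 ± 0.14 (adjusted p = 0.00744). Macc1, beside Itgb8, was higher by 1.20 ± 0.20 (adjusted p = 0.00597). Also called higher were Bbx, beside Cd47 (1.62 ± 0.15), and Gpr84, 2 genes from Itga5 (3.53 ± 0.14). Called lower were Umps, beside Itgb5 (-0.75 ± 0.20), Rarg and Mfsd5, near Itgb7 (-0.60 ± 0.15 and -0.88 ± 0.21), and AI467606, 2 genes from Spn (-1.09 ± 0.15). Neighbours of the called genes that are not named here were not called. S1pr2, which lies 2 genes from Icam1, was higher by 0.83 ± 0.15 (adjusted p = 0.00882), while Mrpl4, between them, differed by 0.06 ± 0.15.

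A second probe set of Selplg read 7.32, 7.78 and 10.25 on the spleen arrays and 8.08, 6.94 and 9.69 on the tumor arrays, so that number 3 was the highest array in both groups there, and the difference was -0.21, against -0.23 on the probe set used.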
